A study of Mus musculus with 15 samples.

Results

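The genes described here are 8 regulators of skeletal muscle formation in the developing mouse secondary palate: *Pax3*, *Pax7*, *Myf5*, *Myod1*, *Myog*, *Myf6*, *Mef2c* and *Mymk*. They were chosen by name, with no threshold on their values but with earlier results of these data known, and make up 8 of the 54232 genes in the count table. Bulk RNA sequencing measured messenger RNA of dissected palatal shelves of wild-type (WT) mice at 5 stages: E13.5, E14.5, E15.5 and E16.5, counted in embryonic days, and P0, the day of birth. Each stage had 3 libraries, and each library pooled the secondary palates of 3 embryos. No strain, sex, treatment or altered allele was given in the labels used here, and all groups share the WT genotype. The labels do not say whether pools of a stage came from different litters, so the p-values for single genes measure the spread between pools only.

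Skeletal muscle arises from progenitor cells that carry the paired-box factors Pax3 and Pax7. The basic helix-loop-helix factors Myf5, MyoD (*Myod1*), myogenin (*Myog*) and MRF4 (*Myf6*) commit these cells to the muscle lineage and drive their differentiation, with the MADS-box factor Mef2c as a partner. Myomaker (*Mymk*), a membrane protein of differentiating myoblasts, is needed for their fusion into fibres. The muscles of the soft palate derive from cranial mesoderm. Head muscles form without the early Pax3 step known from the trunk, while Pax3 is also known from neural crest and the dorsal neural tube.

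All 8 genes were detected in every library, with 10 counts as the lowest value (*Myf6*, E13.5 replicate 1 and E14.5 replicate 2) and 12444 as the highest (*Mef2c*, E15.5 replicate 1). All 8 passed the filter on low counts. Levels are given as CPM, counts scaled to a library total of 1e6 with totals adjusted by TMM, the trimmed mean of M values. On the mouse assembly GRCm38, *Pax3* lies at chr1:78101267-78197134 on the minus strand, *Pax7* at chr4:139737062-139833528 (minus), *Myod1* at chr7:46376474-46379099 (plus), *Myog* at chr1:134289989-134292548 (plus), *Mef2c* at chr13:83504034-83667080 (plus) and *Mymk* at chr2:27061636-27072179 (minus). *Myf5* (chr10:107482908-107486134) and *Myf6* (chr10:107492853-107494737) are neighbours on the minus strand, 6.72 kb apart. No other annotated gene overlapped any of the 8. Counts are over the exons of each gene, 1263 bases in *Myf6* and 15715 in *Mef2c*.

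RefSeq promoter windows on GRCm38.p6, from 250 bases before to 50 after the annotated start, were found for 4 of the 8 genes: *Myog*, *Myf5*, *Pax7* and *Mef2c*. *Pax3*, *Myod1*, *Myf6* and *Mymk* had no entry. The stretches upstream of the start are shown for *Myog*, the member with the highest level per exon base, and for *Myf5*. *Myf5* is the earliest factor of the family in the trunk. Both are shown because an E-box, a MEF3 site and a MEF2 site were matched in *Myog* and none of them in *Myf5*. Capitals mark, from left to right, an E-box, a MEF3 site and a MEF2 site.
Myog chr1:134289754-134289988, plus strand: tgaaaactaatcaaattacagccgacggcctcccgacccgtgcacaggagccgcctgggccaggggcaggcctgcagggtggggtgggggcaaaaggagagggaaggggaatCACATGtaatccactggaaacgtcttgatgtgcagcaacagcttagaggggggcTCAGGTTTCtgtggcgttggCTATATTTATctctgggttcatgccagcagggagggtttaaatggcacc
Myf5 chr10:107486135-107486384, minus strand: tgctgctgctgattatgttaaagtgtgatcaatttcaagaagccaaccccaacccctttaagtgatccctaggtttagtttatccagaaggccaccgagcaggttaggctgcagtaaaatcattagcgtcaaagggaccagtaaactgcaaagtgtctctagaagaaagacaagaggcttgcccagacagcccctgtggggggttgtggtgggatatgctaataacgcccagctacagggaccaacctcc

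The letters searched, on both strands, were CANNTG for the E-box, which factors of the MyoD family bind, CAGCTG for an E-box with a GC centre (a subset of the E-boxes), TCAGGTTTC for the MEF3 site, and the MEF2 site by its name. In *Myog* the E-box CACATG began at position -138, the MEF3 site at -84 and the MEF2 site at -64, counted from the RefSeq start. A second E-box, at -12, lies past the printed bases. The E-box occurred in 72.3% of 32851 promoter windows of the same length, the E-box with a GC centre in 16.3%, the MEF2 site in 7.66% and the MEF3 site in 0.429%. Of the 3 windows of *Mef2c*, the first held E-boxes at -234 and -100 and a MEF2 site at -146, the second held none of these motifs and the third held an E-box at -245. Neither the *Myf5* nor the *Pax7* window held any of them. A match describes letters only, and no binding was measured.

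The 15 libraries held 21.5 to 69.0 M counts (M, 1e6; median 61.0 M), so that 3 counts, taken as the detection floor, correspond to 0.0435 to 0.140 CPM; this covers counting error only. Palate mesenchyme markers were all above the floor in every library (12 of 12, summed 423 to 1560 CPM), as were 8 of 8 epithelial ones. Libraries of a stage were unequal in content. E14.5 replicates 1 and 2 held 408 and 92.9 summed CPM of 12 Hox genes of the trunk, against at most 29.4 in any other library. E14.5 replicate 1 also had the highest sum of brain and choroid plexus markers (1518 CPM) and of neuron markers (4433 CPM). Next in the sum of brain and choroid plexus markers were E14.5 replicate 3 (832 CPM), P0 replicate 2 (499) and P0 replicate 3 (318). Summed over 20 genes of differentiated muscle, E14.5 replicate 3 had 2345 CPM against 500.2 and 693 in its stage, E15.5 replicate 1 had 9179 against 4721 and 3379, and P0 replicate 3 had 10289 against 45446 and 56491. In bulk tissue, fewer cells of a type and less RNA per cell cannot be told apart.

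Between E13.5 and P0 the members went in different directions. *Myf6*, *Mymk*, *Myf5*, *Mef2c* and *Myog* were higher in the later stages (E15.5, E16.5 and P0) than in the earlier ones (E13.5 and E14.5), by 37.3-fold, 7.05-fold, 3.30-fold, 2.51-fold and 2.57-fold. *Pax3* was 10.2-fold lower. *Pax7* and *Myod1* did not pass the test. Thus 6 of 8 members passed an adjusted p of 0.05 (edgeR's quasi-likelihood test, Benjamini-Hochberg over 22151 genes), 5 higher and 1 lower, where 64.3% of all tested genes did, 32.2% higher and 32.2% lower. With so many genes called, a count of 6 is close to the background, and the sizes of the changes carry more than the count. The median log2 fold change of the members was 1.34, against 0.0051 over all tested genes. Over the 5 stages as a whole 5 of 8 passed (*Pax3*, *Myf5*, *Myf6*, *Mef2c* and *Mymk*), beside 59.1% of all tested genes.

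**Figure D1:**
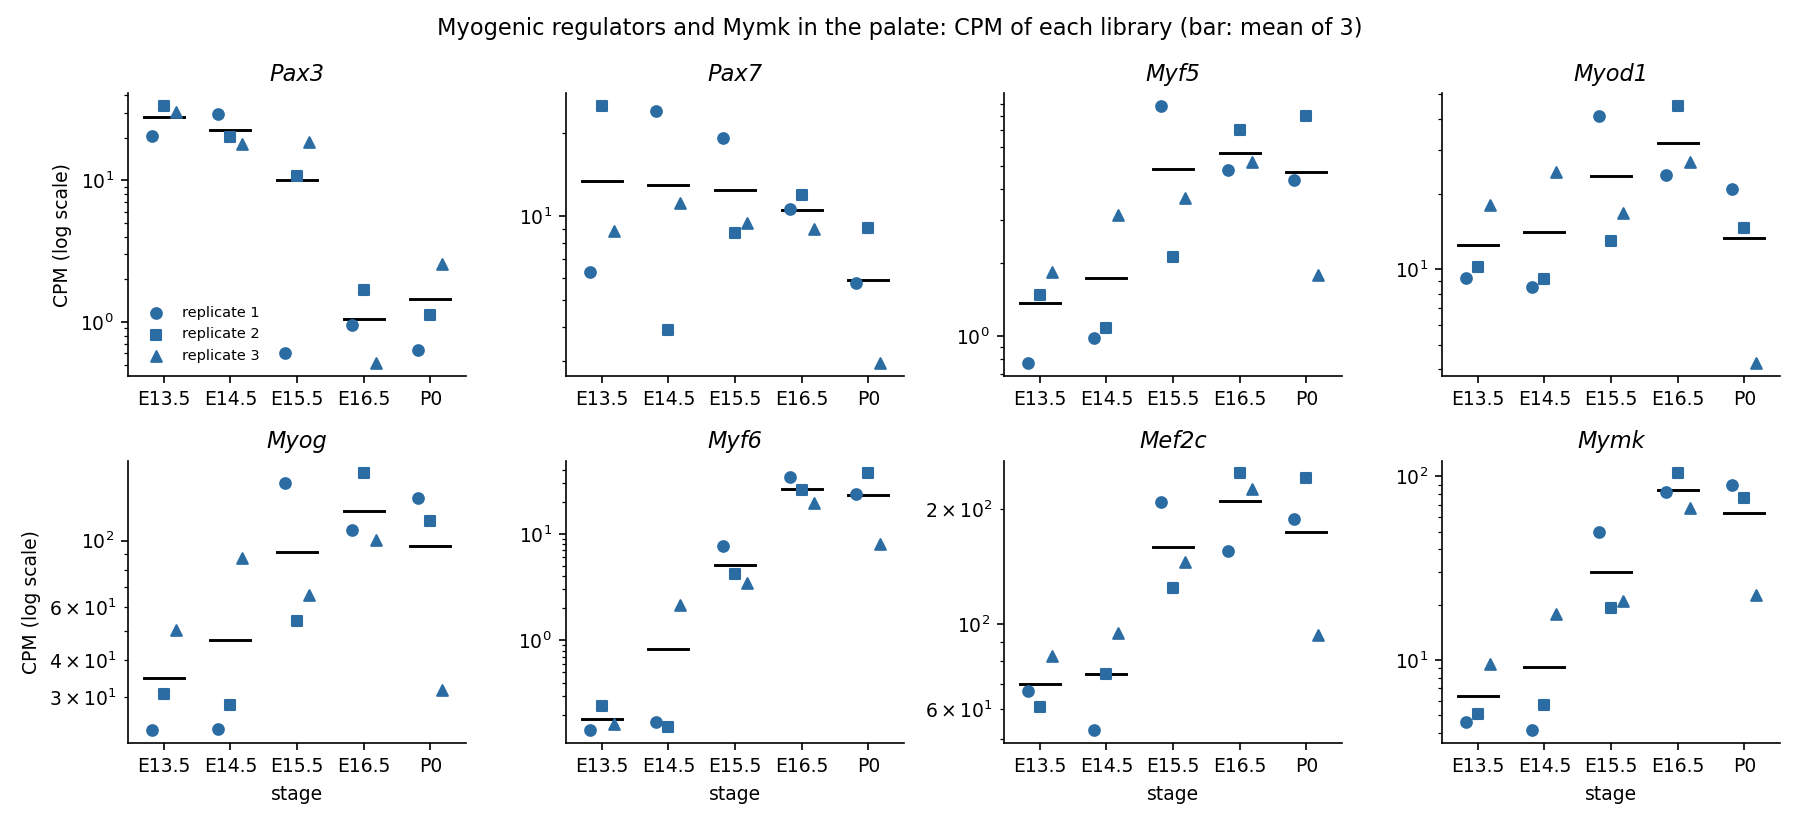
CPM of the 8 genes in each library (log axis, a separate range for each gene) by stage; symbols are the 3 replicates and bars the mean of 3. *Myf6* and *Mymk* were higher in all 9 libraries from E15.5 on than in all 6 earlier ones, while *Pax3* was under 3 CPM in all 6 libraries of E16.5 and P0. The share of all tested genes that separate in this way is not given here.

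*Pax3*, the paired-box factor of early progenitors, was the member that fell. Its level was 20.7, 33.4 and 30.3 CPM in replicates 1, 2 and 3 at E13.5, 29.3, 20.3 and 18.1 at E14.5, and 0.607, 10.8 and 18.6 at E15.5. At E16.5 it was 0.950, 1.69 and 0.514 CPM, and at P0 0.638, 1.13 and 2.57. E15.5 was split: replicate 1 was as low as the E16.5 libraries, and replicate 3 was within the range of E14.5. The later stages were lower by a log2 fold change of -3.36 ± 0.54 (SE, adjusted p = 0.00016, edgeR), and P0 was lower than E13.5 by -4.31 ± 0.93 (adjusted p = 0.00185). Between E15.5 and E16.5 the difference was -3.26 ± 0.89 and did not pass (adjusted p = 0.0803, edgeR); it passed without E15.5 replicate 1 (-3.81, adjusted p = 0.0379) and with DESeq2 (adjusted p = 0.00201).

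Marker lists of other tissues differed between the same stages. Of all tested genes 64.3% were called, 32.2% lower and 32.2% higher, and counts in 1 direction are to be read beside the 32.2%. A share near that of all tested genes sets no list apart. Later against earlier, 4 of 8 neuron markers were called lower and none higher, 5 of 10 brain and choroid plexus markers lower and 1 higher, and 6 of the 8 tested trunk Hox genes lower and none higher. Palate mesenchyme markers (8 of 12) and cell cycle genes (10 of 12) were also called lower and none higher, and cartilage markers were lower in 5 of 7 and higher in 1. Epithelial markers (6 of 8) and macrophage markers (6 of 7) were called higher and none lower, as the rising members were. Summed brain and choroid plexus markers ranged from 92.0 to 1518 CPM in the earlier libraries and from 35.2 to 499 in the later ones, and neuron markers from 977 to 4433 and from 815 to 3051. E15.5 replicate 1, with the low *Pax3*, had 35.2 CPM of brain and choroid plexus markers against 147 and 142 in its stage, and 569 CPM of epithelial markers against 1429 and 2082. Its neuron markers went the other way, at 2434 CPM against 1224 and 1018. The part of these lists in the fall of *Pax3* or in the rises of other members was not tested. Without E13.5 replicate 2 and E14.5 replicate 1, the libraries richest in neural markers in their stages, the log2 fold change of *Pax3* was -3.17 (adjusted p = 0.00163, edgeR). That set was chosen after the data were seen, and libraries with neural markers remained. E14.5 replicate 3, with the lowest *Pax3* of its stage, had 832 CPM of brain and choroid plexus markers. E14.5 replicate 2 had 3292 CPM of neuron markers. The fit therefore cannot show whether neural tissue has a part in the fall.

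*Pax7*, the paired-box factor of later progenitors and satellite cells, showed no stage difference past the threshold. Its values were 6.29, 25.0 and 8.85 CPM at E13.5, 24.0, 3.91 and 11.2 at E14.5, and 19.2, 8.74 and 9.44 at E15.5. At E16.5 they were 10.7, 11.98 and 9.004 CPM and at P0 5.74, 9.06 and 2.96. The groups overlapped widely, with the lowest value in P0 replicate 3 and the 2 highest in E13.5 replicate 2 and E14.5 replicate 1. These are also the libraries of their stages with the most brain and choroid plexus markers (266 and 1518 CPM) and neuron markers (2512 and 4433 CPM). The log2 fold change later against earlier was -0.52 ± 0.41 (adjusted p = 0.278, edgeR), and without those 2 libraries it was 0.28 (adjusted p = 0.531), so its direction rests on them. Leaving out the 2 highest values, both from earlier stages, moves the change upward whatever their neural content. P0 against E13.5 gave -1.17 ± 0.65 (adjusted p = 0.139).

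*Myf5*, which acts first among the myogenic factors in the trunk, was the lowest of the 4 per base of exon in stage means from E15.5 on. It was at 0.774, 1.48 and 1.83 CPM at E13.5, 0.981, 1.07 and 3.15 at E14.5, and 8.78, 2.12 and 3.70 at E15.5. At E16.5 it was at 4.81, 7.03 and 5.16 CPM and at P0 at 4.35, 7.99 and 1.79. The highest library of each of the 2 stages E14.5 and E15.5 was the one richest in differentiated muscle genes, and the groups overlapped through E14.5 replicate 3, E15.5 replicate 2 and P0 replicate 3. *Myf5* rose by a log2 fold change of 1.72 ± 0.43 (adjusted p = 0.00367, edgeR). Without E14.5 replicates 1 and 2, the libraries with the Hox genes, the change was 1.32 and no longer passed. That set leaves E14.5 replicate 3, the highest of the earlier libraries in *Myf5*, alone in its stage. Leaving out the lower values of E14.5 makes the change smaller whatever their Hox content. P0 against E13.5 gave 1.79 ± 0.65 (adjusted p = 0.0310), a call lost without P0 replicate 2 (adjusted p = 0.146), E13.5 replicate 1 (0.109) or E13.5 replicate 2 (0.0693).

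*Myod1*, the commitment factor, was at 9.26, 10.2 and 18.1 CPM at E13.5, 8.47, 9.16 and 24.5 at E14.5, and 40.9, 13.03 and 16.9 at E15.5. It was at 23.9, 44.8 and 26.9 CPM at E16.5 and at 20.996, 14.6 and 4.22 at P0. The stage means were highest at E16.5 (31.9 CPM) and nearly equal at E13.5 (12.5) and P0 (13.3), but libraries of a stage differed by up to 4.97-fold. The log2 fold change later against earlier was 0.70 ± 0.39 (adjusted p = 0.135, edgeR); it passed without E14.5 replicate 3 (1.03, adjusted p = 0.0405) or without P0 replicate 3 (0.87, adjusted p = 0.0419). Between E16.5 and P0 it was -1.26 ± 0.61 (adjusted p = 0.449), and P0 against E13.5 gave 0.09 ± 0.60 (adjusted p = 0.909).

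*Myog*, the differentiation factor, was at 23.4, 30.8 and 50.2 CPM at E13.5, 23.6, 28.3 and 87.5 at E14.5, and 155, 53.9 and 66.0 at E15.5. At E16.5 it was at 109, 167 and 100.02 CPM and at P0 at 139, 116 and 31.8. E14.5 replicate 3 was above 2 of the 3 libraries of E15.5, and P0 replicate 3 lay among the earliest libraries, so the groups overlapped. *Myog* rose by a log2 fold change of 1.36 ± 0.41 (adjusted p = 0.0108, edgeR). The call was lost without E14.5 replicates 1 and 2 (0.93) and without E13.5 replicate 2 and E14.5 replicate 1 (1.15, adjusted p = 0.0611, edgeR). The first of these sets leaves E14.5 replicate 3, the highest of the earlier libraries in *Myog*, alone in its stage. Leaving out the lower values of E14.5 makes the change smaller whatever their Hox content. P0 against E13.5 was just above the threshold (1.46 ± 0.62, adjusted p = 0.0589), and passed without P0 replicate 3 (1.89, adjusted p = 0.0154).

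*Myf6*, the factor of late differentiation and of fibres, changed most. It was at 0.143, 0.239 and 0.163 CPM at E13.5 (10, 17 and 11 counts), and at 0.171, 0.151 and 2.13 CPM at E14.5 (11, 10 and 152 counts). It then reached 7.60, 4.20 and 3.43 CPM at E15.5, 33.9, 25.9 and 19.5 at E16.5, and 23.9, 37.0 and 7.97 at P0. Every library from E15.5 on was above every earlier one, and E14.5 replicate 3, rich in muscle genes, stood apart from the other 5 earlier libraries. For *Myf6*, as for *Mymk* below, this separation has no share of all tested genes beside it and does not set the gene apart. The rise was 5.22 ± 0.66 on the log2 scale (adjusted p = 2.79e-05, edgeR), and P0 against E13.5 gave 6.96 ± 1.05 (adjusted p = 0.000151). E15.5 was above E14.5 by 2.62 ± 0.85 (adjusted p = 0.0384). That single step was lost without any of the 3 libraries of E15.5 or without E14.5 replicate 1 or 2 (adjusted p from 0.0618 to 0.132), and was largest without E14.5 replicate 3 (4.95, adjusted p = 0.00180).

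*Mef2c*, the MADS-box partner, which is also known from endothelium and neural crest, had the highest mean CPM of the 8 genes at every stage and the smallest range over the 15 libraries (4.70-fold). It was at 66.8, 60.6 and 82.6 CPM at E13.5, 52.9, 74.0 and 95.0 at E14.5, and 210, 125 and 145 at E15.5. At E16.5 it was at 156, 249 and 227 CPM and at P0 at 189, 241 and 93.9. All later libraries but P0 replicate 3 were above every earlier one. *Mef2c* rose by 1.33 ± 0.22 on the log2 scale (adjusted p = 0.000209, edgeR), P0 against E13.5 gave 1.32 ± 0.33 (adjusted p = 0.00470), and E15.5 against E14.5 1.11 ± 0.33 (adjusted p = 0.0272). The last of these was lost without E14.5 replicate 1 (adjusted p = 0.126), E14.5 replicate 2 (0.0792), E15.5 replicate 1 (0.0908) or E15.5 replicate 3 (0.0569). Of 10 endothelial markers, 6 were called higher and 1 lower later against earlier. The share called in either direction was near that of all tested genes (64.3%), of which 32.2% were called higher. The markers had sums of 348 to 503 CPM in the earlier libraries and 509 to 866 in the later ones, and their part in the rise of *Mef2c* was not tested.

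*Mymk*, the fusion protein, was at 4.60, 5.11 and 9.48 CPM at E13.5, 4.16, 5.68 and 17.7 at E14.5, and 49.7, 19.2 and 20.97 at E15.5. It was at 82.1, 104 and 66.9 CPM at E16.5 and at 89.4, 76.2 and 22.5 at P0. Every library from E15.5 on was above every earlier one, though E14.5 replicate 3 came close to E15.5 replicate 2. The rise was 2.82 ± 0.43 on the log2 scale (adjusted p = 0.000116, edgeR), and P0 against E13.5 gave 3.29 ± 0.65 (adjusted p = 0.00101). E15.5 against E14.5 gave 1.70 ± 0.61 and missed the threshold (adjusted p = 0.0565), which it passed without E14.5 replicate 3 (2.60, adjusted p = 0.0118) and with DESeq2 (adjusted p = 0.0161).

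**Figure D2:**
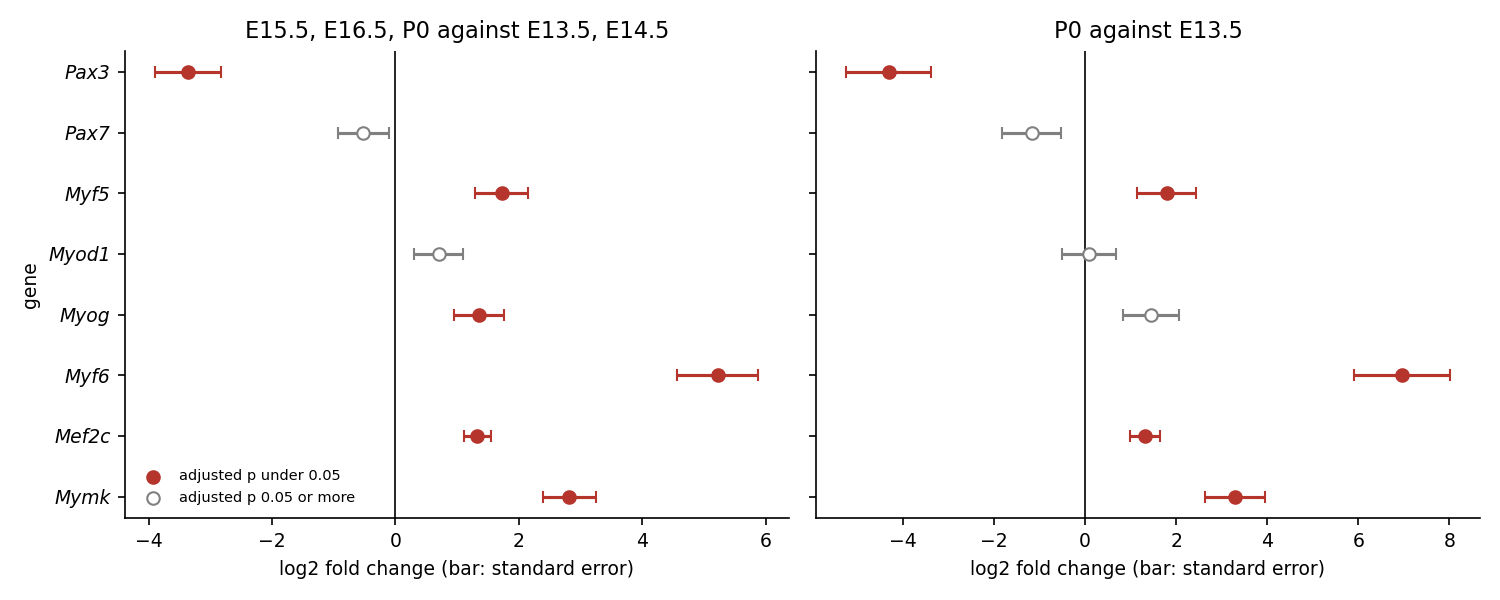
Log2 fold change (x axis) with its standard error (bars) of each gene, later against earlier stages on the left and P0 against E13.5 on the right; filled points passed an adjusted p of 0.05. *Myf6* (5.22 and 6.96) and *Pax3* (-3.36 and -4.31) lie at the opposite ends of both panels.

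Stage by stage, few of these differences could be assigned to a single step. Of 8 members, none passed between E13.5 and E14.5 (0.00903% of all tested genes did), 2 passed between E14.5 and E15.5 (*Mef2c* and *Myf6*; 26.1% of genes), none between E15.5 and E16.5 (1.41%) and none between E16.5 and P0 (0.352%). At an unadjusted p under 0.05 the counts were 1, 4, 3 and 0 with edgeR, beside 3538, 8783, 4830 and 2602 of all 22151 tested genes. DESeq2 called 0, 3, 2 and 0 members at its adjusted p, beside 1000, 7208, 2094 and 663 of all 22151. The step from E14.5 to E15.5 called 2803 genes higher and 2970 lower over all genes, and 3424 and 2007 with upper-quartile normalization, where the median over all genes went from 0.03 to 0.16 on the log2 scale. Between E13.5 and P0, 5 of 8 members passed, 4 higher and 1 lower, beside 56.6% of all tested genes. That contrast called *Pax3*, *Myf5*, *Myf6*, *Mef2c* and *Mymk*.

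Levels were compared between genes per length, as TPM (counts per exon base of the table, scaled to a sum of 1e6 per library). The length takes in all annotated exons of a gene, 15715 bases in *Mef2c* and 1495 in *Myog*. A gene whose transcripts use only part of its exons reads lower, so places in the order depend on this length. *Myog* had the highest TPM mean of the 8 at every stage, from 86.4 ± 30.8 (SD, n = 3) at E13.5 to 256 ± 91.2 at E16.5. At E13.5 it was followed by *Myod1* (25.0 ± 8.68 TPM), *Pax3* (16.98 ± 3.60), *Mef2c* (16.7 ± 2.22) and *Mymk* (15.7 ± 5.92), whose libraries overlapped from each to the next. Then came *Pax7* (8.54 ± 6.46), *Myf5* (2.42 ± 0.87) and *Myf6* (0.540 ± 0.148), with no overlap between *Pax7* and *Myf5* or between *Myf5* and *Myf6*. E14.5 kept *Myog* and *Myod1* in front (112 ± 86.6 and 27.2 ± 17.7 TPM) and *Myf6* last (2.35 ± 3.27), and from *Myod1* down each gene overlapped the next.

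The order changed at E15.5. *Mymk* then followed *Myog* (71.7 ± 39.2 TPM), before *Myod1* (45.8 ± 28.2), *Mef2c* (37.0 ± 9.29) and *Myf6* (14.6 ± 6.05), while *Pax3* had the lowest mean (5.94 ± 5.32). That last place rests on replicate 1 (0.349 TPM). In replicates 2 and 3 *Pax3* (6.53 and 10.9 TPM) was above *Pax7* (5.60 and 5.86) and *Myf5* (3.82 and 6.46). All neighbours overlapped at E15.5 except *Myog* and *Mymk*, and *Mef2c* and *Myf6*. At E16.5 *Mymk* had 169 ± 44.5 TPM and *Myf6* 62.1 ± 9.71, ahead of *Myod1* (52.7 ± 22.5), *Mef2c* (41.4 ± 13.8), *Myf5* (8.33 ± 2.44), *Pax7* (5.44 ± 0.99) and *Pax3* (0.515 ± 0.318). Only *Mymk* and *Myf6*, *Mef2c* and *Myf5*, and *Pax7* and *Pax3* were neighbours without overlap there. At P0 *Mef2c* (30.2 ± 10.4 TPM) stood before *Myod1* (19.1 ± 11.1), with *Pax3* last (0.695 ± 0.569), and all neighbours overlapped except *Pax7* and *Pax3*.

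Ratios between members within a library do not depend on how libraries are scaled. The libraries of a stage, which differed several-fold in single genes, were close in some of these ratios. The log2 ratio of *Mymk* to *Myog* (TPM, pseudocount 0.1 TPM) was -2.45 ± 0.13 (SD, n = 3) at E13.5 and -2.38 ± 0.11 at E14.5. It was -1.61 ± 0.09 at E15.5, then -0.57 ± 0.15 at E16.5 and -0.60 ± 0.07 at P0. E14.5 replicate 3 (-2.32) lay with its stage in this ratio although its *Mymk* level was close to those of E15.5, and P0 replicate 3 (-0.51) lay with its stage too. The earlier and later libraries did not overlap. The later stages were higher by 1.49 on the log2 scale (exact two-sided permutation test, 6 against 9 libraries, p = 0.0004, 0.000799 adjusted over 4 ratios). For all 4 ratios this test shuffled the libraries freely, whatever their stage. Libraries of a stage are not independent samples of earlier or later, so its p-values also take in differences between stages.

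The log2 ratio of *Myod1* to *Myog* was -1.78 ± 0.13 (SD, n = 3) at E13.5 and -1.96 ± 0.18 at E14.5. It was -2.29 ± 0.06 at E15.5 and -2.31 ± 0.16 at E16.5, and reached -3.18 ± 0.13 at P0. All 3 P0 libraries (-3.03, -3.30 and -3.21) were below every other library, the lowest of which was E16.5 replicate 1 (-2.50). The level of *Myod1* itself passed no test between P0 and E16.5 or E13.5. Later against earlier the ratio was lower by a log2 difference of -0.73, with no overlap (exact permutation p = 0.0026, 0.0026 adjusted).

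*Myf5* and *Myf6*, the neighbours on chromosome 10, exchanged order. Their log2 ratio was 1.94 ± 0.53 (SD, n = 3) at E13.5 and 1.11 ± 1.11 at E14.5. It was -0.93 ± 0.65 at E15.5, and then -2.91 ± 0.52 at E16.5 and -2.97 ± 0.16 at P0. *Myf5* was above *Myf6* per base in 5 of the 6 earlier libraries, the exception being E14.5 replicate 3 (-0.16), and below it in all 9 later ones. The difference was -3.79 (exact permutation p = 0.0002, the smallest that 5005 assignments give here, 0.000799 adjusted). The log2 ratio of *Pax7* to *Myog* was -3.52 ± 1.13 at E13.5 and -3.88 ± 1.68 at E14.5. It was -4.77 ± 0.20 at E15.5, and then -5.49 ± 0.24 at E16.5 and -5.81 ± 0.62 at P0. It was lower later by -1.66 (exact permutation p = 0.0016, 0.00213 adjusted), with overlapping groups. E13.5 replicate 2 (-2.27) and E14.5 replicate 1 (-1.94), the libraries with the most neural markers in their stages, were the highest, and without them the difference was -0.86 (exact permutation p = 0.0252 after adjustment). Leaving out the highest earlier ratios makes the difference smaller whatever their neural content.

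**Figure D3:**
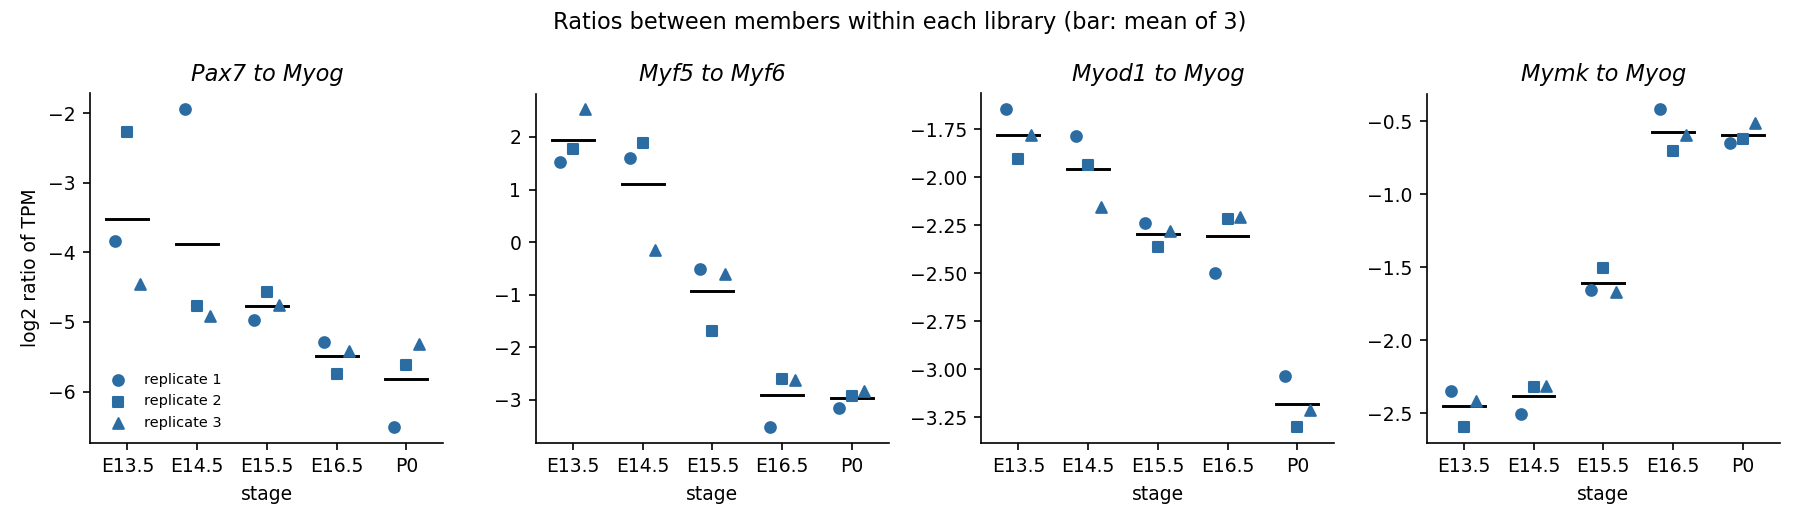
Log2 ratio of TPM of 4 pairs of genes in each library by stage (y axes differ); symbols are the 3 replicates and bars the mean of 3. The *Mymk* to *Myog* ratio separates the 6 earlier libraries (-2.59 to -2.32) from the 9 later ones (-1.67 to -0.42).

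The profiles of the members were compared by the root mean square (RMS) difference of log2 CPM centred on each gene's mean, over all 15 libraries, where 0 means an identical course. *Myf5* and *Myog* were the closest pair (0.310), followed by *Myog* and *Mef2c* (0.422), *Myf5* and *Mef2c* (0.460) and *Myod1* and *Myog* (0.497). *Pax3* was at least 2.32 from every other member, and *Myf6* at least 1.42, its nearest being *Mymk*. *Pax3* and *Myf6* were the farthest apart (5.07). These distances describe libraries that share their depth and dissection and carry no test.

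**Figure D4:**
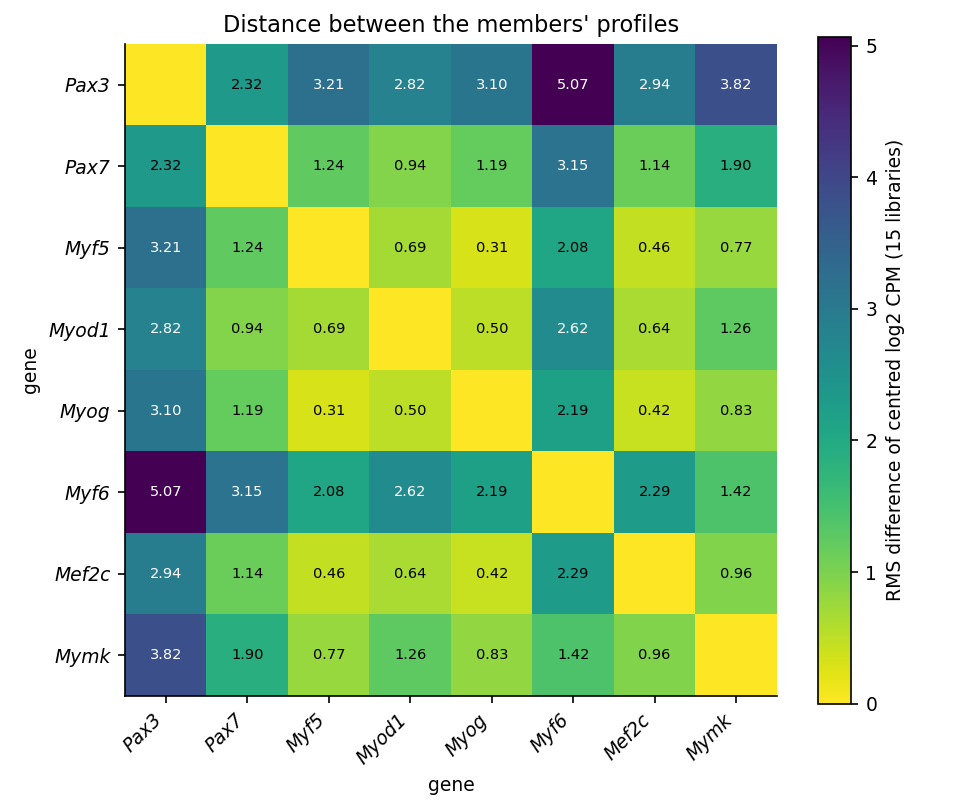
RMS difference of centred log2 CPM over 15 libraries for each pair of the 8 genes; darker cells are farther apart. *Myf5*, *Myod1*, *Myog* and *Mef2c* lie within 0.69 of each other, and *Pax3* and *Myf6* stand apart from them.

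By the same measure, among 16519 genes with a mean of at least 1 CPM, the genes nearest to *Myog* were *Cdh15* (0.145), the muscle cadherin, *Mymx* (0.224), the second fusion protein of myoblasts, and *Fgfr4* (0.262), a growth factor receptor of myoblasts. Nearest to *Mymk* were *Unc45b* (0.156), a myosin chaperone, *Chrnd* (0.163), a subunit of the acetylcholine receptor, and *Synpo2l* (0.173). Nearest to *Myf6* were *Ampd1* (0.433), the muscle AMP deaminase, *Csrp3* (0.433), a muscle LIM protein, and *Cav3* (0.434), the muscle caveolin. *Cav3* reads 0.903, 1.38 and 2.01 CPM at E13.5, 1.56, 2.21 and 9.72 at E14.5, and at least 18.9 in every later library. E14.5 replicate 3 is apart from its stage as in *Myf6*, which follows from the choice of *Cav3* as a gene most like *Myf6* over these libraries. Nearest to *Mef2c* were the sarcoglycans *Sgcd* (0.244) and *Sgcb* (0.252) and the factor *Tead4* (0.256). Nearest to *Myf5* were *Cdh15* (0.336), *Musk* (0.374), the receptor kinase of the neuromuscular junction, and *Trp53cor1* (0.374).

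*Myod1* was most like *Msc* (0.385), a helix-loop-helix factor of head muscle precursors, *4930512H18Rik* (0.423) and *Fam78a* (0.454). The genes nearest to both paired-box factors were farther away and of other kinds. *Pax7* was most like *Rgs16* (0.567), *Klhl13* (0.614) and *Zeb1* (0.634). *Pax3* was most like *Dmbx1* (0.783), a homeobox factor of the brain, *Nhlh2* (0.870), a helix-loop-helix factor of neurons, and *Hpse2* (0.930). *Dmbx1* was at 0.152 CPM in E15.5 replicate 1 against 3.03 and 3.96 in its stage, and at 2.92 CPM in P0 replicate 3 against 0.111 and 0.366, which follows from its choice as the gene most like *Pax3* over these libraries. With each library left out in turn, at least 2 of the 3 nearest genes stayed for *Pax3*, *Myog* and *Mymk*, and as few as 1 for *Pax7*, *Myf5*, *Myod1* and *Myf6* and 0 for *Mef2c*.

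Other muscle genes were read from 7 lists, later against earlier stages, with the counts of genes past an adjusted p of 0.05 (edgeR, over all tested genes, of which 64.3% passed) and the median log2 fold change of the list, beside 0.0051 over all genes. Of 18 upstream and head muscle regulators, 4 were higher and 6 lower (median -0.12). *Six2* (-1.22, adjusted p = 0.00460) and *Ebf3* (-1.85, 3.54e-05), factors that palate mesenchyme also can express, were lower, and *Eya2*, a transcriptional cofactor, did not pass (0.10, 0.572). Against the direction of most calls, *Meox1* (1.37, adjusted p = 0.00308), *Tbx1* (1.13, 0.00997), a factor of pharyngeal mesoderm, *Pitx3* (1.42, 0.00844) and *Met* (0.59, 0.0146), a receptor of migrating muscle precursors, were higher.

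Of 14 E-protein and MEF2 partners, which bind DNA with the members or act on them, 5 were higher and 5 lower (median 0.09). The E-protein *Tcf3* (-0.81, adjusted p = 5.44e-05, edgeR) and the methyltransferase *Carm1* (-0.63, 2.21e-05) were lower, while serum response factor *Srf* (0.61, 1.76e-05) and *Mef2d* (0.71, 0.000215) were higher. Of 19 inhibitors of myogenic factors, 2 were higher and 5 lower (median -0.14). *Twist1* (-0.79, adjusted p = 0.00204), which is also a factor of mesenchyme, and *Id2* (-0.55, 0.00188) were lower, and *Id3* (0.02, 0.910) and *Id1* (0.19, 0.257), the most abundant of the list, did not pass. The exceptions were *Mstn*, the secreted inhibitor myostatin (1.78, adjusted p = 0.00882), and *Heyl* (0.58, 0.00221), which were higher.

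Of 18 genes of myoblast adhesion and fusion, 9 were higher and 5 lower (median 0.30). *Cav3* was higher by 4.87 on the log2 scale (adjusted p = 8.65e-06, edgeR), *Jam3* (0.18, 0.297) and *Kirrel* (0.01, 0.944) did not pass, and N-cadherin *Cdh2* was lower (-1.003, 0.000186). The others called lower were *Dock1* (-0.30, adjusted p = 0.0445), *Adgrb1* (-1.48, 0.00306), *Adgrb3* (-1.46, 0.000752) and *Nphs1* (-2.89, 0.00140), genes with known roles outside muscle, among them in neurons and kidney. *Mymx*, which acts with *Mymk*, was at 3.36 ± 2.35 CPM (SD, n = 6) in the earlier libraries and 10.7 ± 5.43 (n = 9) in the later ones, higher by 1.68 (adjusted p = 0.00604, edgeR).

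Of 13 satellite cell genes, 11 were higher and 1 lower (median 0.87); *Gpc1* (0.77, adjusted p = 0.000147, edgeR), *Dag1* (0.75, 0.000841), *Sdc4* (1.54, 2.70e-05) and *Spry1* (0.75, 5.92e-05), none of them limited to muscle, were higher and *Vcam1* lower (-1.36, 1.17e-06). All 10 neuromuscular junction genes were higher (median 2.17), among them *Chrnb1* (1.87, adjusted p = 0.000328), *Lrp4* (0.47, 0.000591), *Rapsn* (2.08, 0.000894) and *Chrng* (2.33, 0.000555), the subunit of the fetal acetylcholine receptor. All 20 genes of differentiated muscle were higher (median 3.61). *Acta1*, skeletal muscle actin, was higher by 5.76 (adjusted p = 1.11e-05, edgeR), *Mylpf* by 4.72 (1.50e-05), *Tnnc2* by 5.66 (1.19e-05) and *Actc1* by 3.20 (7.13e-05). Only *Myf6* among the 8 regulators had a log2 fold change above the median of this list.

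**Figure D5:**
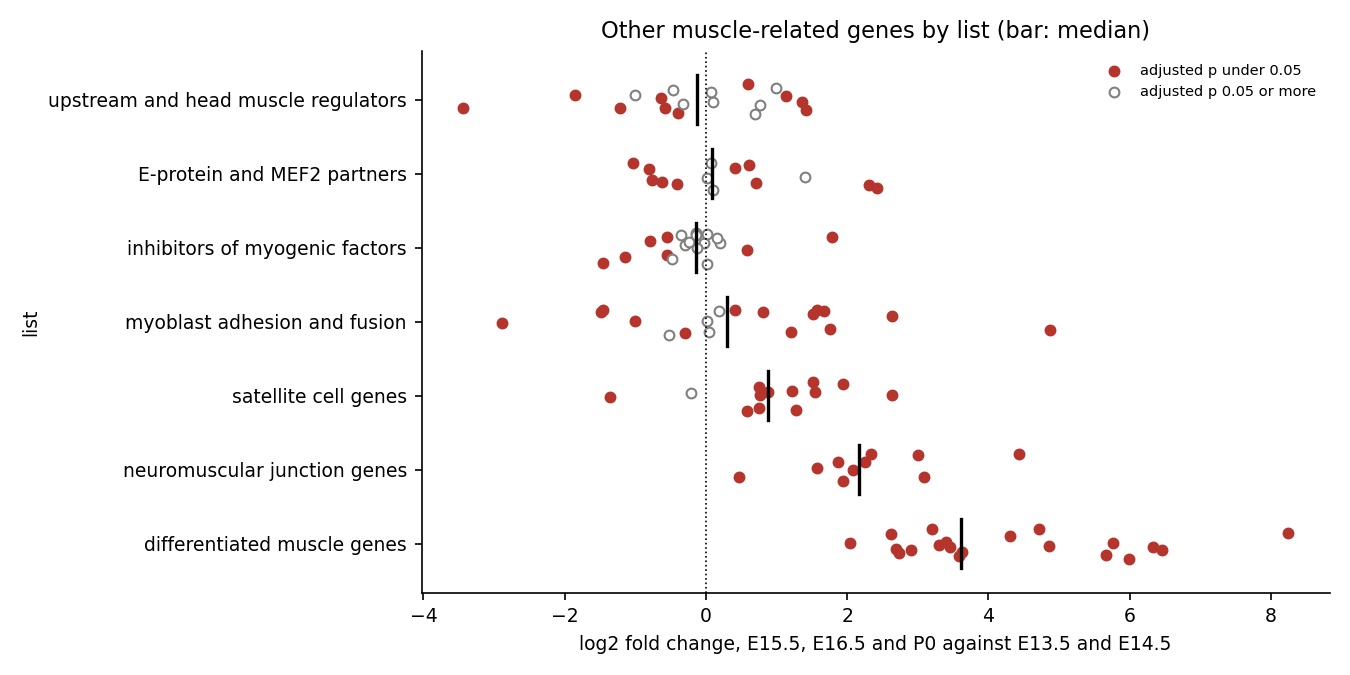
Log2 fold change, later against earlier stages, of each gene of 7 lists (x axis); filled points passed an adjusted p of 0.05 and bars are list medians. The medians run from -0.14 in the inhibitors to 3.61 in differentiated muscle genes, where all 20 points lie to the right of 0.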

How the data were processed

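The deposited table holds raw read-pair counts per gene. Per the file headers, the authors made these counts with featureCounts 2.0.1 with GENCODE M18, as the command names it, for reverse-stranded pairs in adapter-trimmed, duplicate-marked alignments; marked duplicates and multi-mapped pairs got no special option. The submitters' processing notes also name cutadapt 3.4, HISAT2 2.2.1, Bowtie2 and SAMtools 1.12. Symbols matched 54079 of 54232 identifiers, and the 8 members had the same positions in GENCODE M21 (GRCm38).

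Stages were taken from the labels. Counts were filtered (filterByExpr, minimum count 10), scaled by TMM and tested with edgeR 4.0.16 in R 4.3.3, where each stage had its own coefficient and all 15 libraries shared the spread; p-values were adjusted by Benjamini-Hochberg over 22151 genes, threshold 0.05. TPM used the table's exon lengths. Likeness used log2 CPM with a prior count of 2. Replicates differed far beyond counting noise (chi-square of 32.6 to 246 per degree of freedom), so all counted as separate samples. The procedure was tested on simulated counts.

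Named genes were the members, the 3 nearest to each, the 4 of each list with the highest mean TPM and those called against the majority of a list's calls. Members and lists were chosen with earlier results of these data known. *Mymx* and the markers were named outside this rule. The values of 1 listed gene are not reported here.

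The alternatives tried were upper-quartile scaling or the size factors of DESeq2 within edgeR, the test of DESeq2 1.42.0 itself, no filter or a mean of 1 CPM, the contrast's 6 libraries alone, the replicate number as a block, pseudocounts of 0.01 and 1 TPM, medians, and each library left out. Leaving out sets of libraries was added after seeing the data.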

Additional observations from a re-analysis of the deposited data

How the results depend on the processing

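The counts of members called over the 5 stages, later against earlier, between E13.5 and E14.5, between E16.5 and P0 and between E13.5 and P0 stayed within 1.5 times in every alternative that was run (later against earlier 4 to 7 of 8, with 4 when E14.5 replicates 1 and 2 were left out). The count between E14.5 and E15.5, 2 of 8, was 0 to 4 with each library left out in turn. It was 1 with the 6 libraries of the contrast alone and 0 without E13.5 replicate 2 and E14.5 replicate 1. Over all genes the main fit called 5773 of 22151 in this step. With 1 library left out it was 2320 of 22824 (E14.5 replicate 1) to 5816 of 22882 (E14.5 replicate 3). The contrast alone called 6569 of 20313, and leaving out E13.5 replicate 2 and E14.5 replicate 1 gave 2394 of 22676. The count between E15.5 and E16.5, 0 of 8, was 2 with DESeq2 and 0 to 1 with each library left out. Over all genes this step called 312 of 22151 in the main fit and 2094 of 22151 with DESeq2. With 1 library left out it was 0 of 22732 (E15.5 replicate 2) to 504 of 23047 (E16.5 replicate 3). All 4 ratios kept their direction and passed in every alternative. The cause of these shifts was not tested.

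Of 548 values of single members under an alternative, 493 kept direction and side of the threshold, 23 lost it, 17 gained it and 15 changed sign. The sign changes were in values that had not passed. *Pax7* later against earlier turned to 0.28 without E13.5 replicate 2 and E14.5 replicate 1. *Myf6* between E13.5 and E14.5 (2.16) was -0.17 to 2.65 with each library left out, and -0.17 without E14.5 replicate 3 and E15.5 replicate 1. *Pax7* between E14.5 and E15.5 (-0.06) was -0.53 to 0.71 with each left out, and 0.073 with upper-quartile scaling, 0.033 with the 1 CPM filter, 0.18 without E14.5 replicates 1 and 2, and 0.71 without E13.5 replicate 2 and E14.5 replicate 1. *Myod1* between E14.5 and E15.5 (0.75) was -0.024 without E14.5 replicates 1 and 2. *Myod1* between E13.5 and P0 (0.09) was -0.36 to 0.53 with each left out, and -0.047 without E13.5 replicate 2 and E14.5 replicate 1.

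The replicate numbers are not known to pair libraries. Same-numbered libraries of different stages had a mean correlation of deviations of 0.06 (-0.30 to 0.55, 30 pairs), different-numbered ones -0.03, and 7 of 15 libraries correlated best with their own number. With a replicate block, 1 member was called between E14.5 and E15.5 in place of 2, and 4 over the 5 stages in place of 5. Over all 22151 tested genes the block called 5860 in place of 5773 and 13151 in place of 13081.

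For the lists, later against earlier, the medians kept their signs in all 25 alternatives. The 3 medians nearest 0 moved by over 1.5 times with 1 library left out. That of the upstream regulators (-0.12) was -0.041 when P0 replicate 3 was left out, -0.057 for E16.5 replicate 3, -0.21 for E16.5 replicate 2, -0.24 for E14.5 replicate 1 and -0.23 for E15.5 replicate 1. That of the E-protein and MEF2 partners (0.09) was 0.14 without E13.5 replicate 1, 0.017 without E13.5 replicate 3 and 0.18 without P0 replicate 3. That of the inhibitors (-0.14) was -0.24 without E16.5 replicate 3. The counts of higher genes ranged from 1 to 6 of the upstream regulators and from 5 to 9 of the fusion genes, the lowest in both without E14.5 replicates 1 and 2. Where an arm was left with 1 library, its spread was taken from the other stages. At 10 to 17 counts, *Myf6* in 5 of the 6 earlier libraries is limited by depth.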
